A study of Mus musculus with 14 samples.

Results

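Afp and 7 further genes that encode proteins best known as products of the liver were followed across sorted mouse crypt cells: Serpina1a, Serpina1b, Serpina1c, Serpina1d, Serpina1e, Ttr and Habp2. They were taken as the rows of the array table whose platform symbol is 1 of these 8 names, among 24675 rows with a symbol. A row was found for 7 of the 8, and Serpina1a is not analysed here. Of these 7, 5 passed the filter on low values, which 15873 genes passed: Afp, Serpina1b, Serpina1e, Ttr and Habp2. The genes were chosen with the values of these arrays known, so their levels and differences are a description and carry no test, and the p-values of correlations given further on support nothing beyond that description.

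The study compared mice with the genotype Atg7(fl/fl);Lgr5-EGFP-IRES-CreERT2, called Atg7KO, and mice with Lgr5-EGFP-IRES-CreERT2 alone, called WT. Every mouse therefore carried EGFP and a tamoxifen-inducible Cre at Lgr5, the gene that marks crypt base stem cells, and every mouse received tamoxifen on 5 days and was killed 1 month later. Atg7 encodes an enzyme that autophagosome formation needs, and its deletion can start only in cells in which the Lgr5 allele drives the Cre. From the CD24(low) crypt cells, sorting took an EGFP(High) gate, labelled as stem cells, and an EGFP(Low) gate, labelled as transit amplifying progenitors. Each sample gave 1 array (Affymetrix Mouse Gene 2.0 ST) from 1 ng of amplified RNA: 3 Atg7KO-High, 3 WT-High, 4 Atg7KO-Low and 4 WT-Low. Each sample came from a single mouse, per the labels, and names such as WT-Low-411 join the group to the title's number. Age and strain background are not known here.

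Alpha-fetoprotein, encoded by Afp, is the fetal counterpart of albumin; yolk sac and fetal liver secrete it, and the gene is silenced in liver after birth. Serpina1 genes encode alpha-1-antitrypsin, the plasma inhibitor of neutrophil elastase, and the mouse carries several near-identical copies side by side. Transthyretin, from Ttr, carries thyroxine and the retinol-binding protein, and Habp2 encodes a plasma serine protease that activates coagulation factor VII and pro-urokinase.

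The start-site windows of Serpina1b and Serpina1e, the 2 alpha-1-antitrypsin genes whose row passed the filter, are shown because they let the copies be compared near their starts (RefSeq, GRCm38.p6, 300 bases each, mostly before the annotated start, 5′ to 3′ on the gene's strand). Capitals mark the longest run of letters that both windows share. The windows lie at chr12:103738140-103738439 for Serpina1b and chr12:103956848-103957147 for Serpina1e, both on the minus strand.
Serpina1b: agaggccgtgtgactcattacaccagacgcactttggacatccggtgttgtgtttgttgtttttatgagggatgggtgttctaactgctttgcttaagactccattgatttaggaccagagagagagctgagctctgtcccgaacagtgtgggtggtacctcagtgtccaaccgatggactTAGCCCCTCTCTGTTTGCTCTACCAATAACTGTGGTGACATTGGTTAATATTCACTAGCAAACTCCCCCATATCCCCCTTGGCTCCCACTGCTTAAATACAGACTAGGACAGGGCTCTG
Serpina1e: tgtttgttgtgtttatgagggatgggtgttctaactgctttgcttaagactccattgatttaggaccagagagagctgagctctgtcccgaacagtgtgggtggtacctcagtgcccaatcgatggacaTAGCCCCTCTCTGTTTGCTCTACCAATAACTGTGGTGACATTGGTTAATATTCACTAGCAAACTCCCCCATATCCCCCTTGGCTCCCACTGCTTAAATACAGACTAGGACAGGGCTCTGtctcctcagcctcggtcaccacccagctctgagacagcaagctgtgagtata

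The shared run is 119 bases long. It covers bases 182 to 300 of the Serpina1b window, where it is cut by the window's end, and bases 130 to 248 of the Serpina1e window, so the annotated starts are offset against each other. Aligned over their whole length, with gap positions counted as unlike, the windows of Serpina1b and Serpina1e are 69.3% identical. The offset of the starts lowers this value, so it does not measure how far these copies diverge. The windows of Serpina1a to Serpina1d are between 85.2% and 91.4% identical to one another. The Afp window is at most 48.6% identical to any of the Serpina1 windows. These windows lie mostly outside the transcripts, so they give no measure of how alike the transcripts are.

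The values below are log2 values as deposited (RMA). Series-wide, Atg7 read 5.65 to 6.37 on the 7 Atg7KO arrays and 6.46 to 7.49 on the 7 WT arrays, and the 2 genotypes did not overlap, although limma did not call the difference (-0.65, adjusted p = 0.208 in EGFP(High) and -1.02, adjusted p = 0.166 in EGFP(Low) cells). Lgr5 read 8.69 to 9.30 on EGFP(High) arrays and 4.65 to 6.25 on EGFP(Low) arrays. Of 18 Lgr5 stem cell markers, which include Lgr5, whose EGFP set the gates, 14 were called higher in EGFP(High) in Atg7KO and 15 in WT cells. Among all genes, 4.48% were called higher in Atg7KO and 1.22% in WT cells. With single arrays left out, the marker counts were 11 to 15 in Atg7KO and 9 to 15 in WT cells. The spread of all values on an array was narrowest on Atg7KO-High-356 and WT-Low-411 (SD 1.90 on both) and reached 2.06 elsewhere. Differences and their standard errors (SE) come from a limma fit of the 4 group means over all 14 arrays, and the threshold for a call was an adjusted p of 0.05, with the adjustment over 15873 genes.

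Afp was low in the stem cell gate, at the 26.25th to 40.51st percentile of its array. It was high in the progenitor gate, at the 65.74th to 93.83rd percentile. It read 3.40, 3.51 and 3.90 in Atg7KO-High cells and 3.37, 3.57 and 3.27 in WT-High cells. In the EGFP(Low) gate it read 6.44, 8.10, 8.00 and 8.43 in Atg7KO cells and 5.60, 7.53, 8.21 and 7.64 in WT cells. All 6 EGFP(High) arrays lay below all 8 EGFP(Low) arrays, a separation in this direction that 1.79% of the 15873 genes showed. The space between the gates was 1.70 log2 units, the second widest of the 15873 genes after Mptx1 (1.76), a mucosal pentraxin gene. Afp reached the 40th percentile of its array on 1 of 6 EGFP(High) arrays and on 8 of 8 EGFP(Low) arrays, so the EGFP(High) values bound its level there only from above.

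The difference for Afp, EGFP(High) minus EGFP(Low), was -4.14 (SE 0.52) in Atg7KO cells and -3.84 (SE 0.52) in WT cells, or 17.7-fold and 14.4-fold lower in the stem cell gate. Since most EGFP(High) values lay under the 40th percentile of their array, these folds may understate the difference. The ranks that follow are of the RMA values as deposited. In Atg7KO cells it was the most negative of all 15873 differences, and in WT cells only Mptx1 was more negative. Leaving out single arrays moved the Atg7KO difference between -4.58 and -3.91 and the WT difference between -4.39 and -3.52. By group, Afp averaged 3.60 ± 0.26 in Atg7KO-High and 3.40 ± 0.15 in WT-High cells (SD, n = 3 each), and 7.74 ± 0.89 in Atg7KO-Low and 7.24 ± 1.14 in WT-Low cells (SD, n = 4 each). In both gates the Atg7KO arrays overlapped the WT arrays. Atg7KO minus WT was 0.20 (SE 0.55) in the EGFP(High) gate and 0.50 (SE 0.48) in the EGFP(Low) gate. The EGFP(Low) value rests on the lowest array of each group, since it was -0.05 without WT-Low-341 and 0.93 without Atg7KO-Low-356. Because these are bulk samples, fewer cells of a type and less RNA per cell cannot be told apart.

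**Figure D1:**
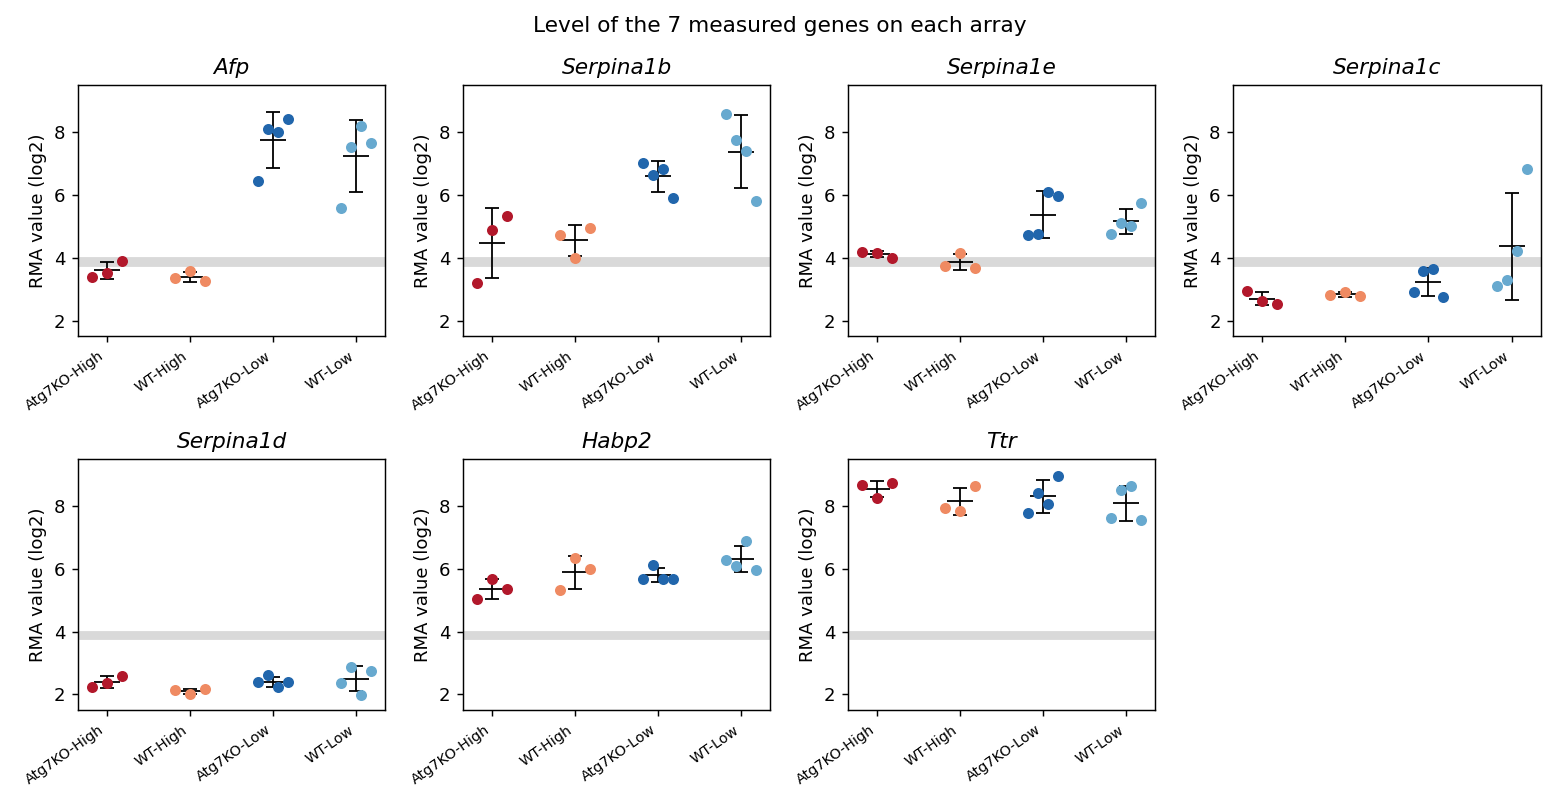
Log2 RMA value of each measured gene on each of the 14 arrays, with group means and SD as bars. The grey band spans the 40th percentiles of the 14 arrays; Afp, Serpina1b and Serpina1e are lower on all 6 EGFP(High) arrays than on all 8 EGFP(Low) arrays, and Ttr and Habp2 overlap between the gates.

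Of the alpha-1-antitrypsin genes, Serpina1b had the larger difference between the gates. It read 3.21, 4.88 and 5.33 in Atg7KO-High cells and 4.71, 4.00 and 4.96 in WT-High cells. In the EGFP(Low) gate it read 7.01, 6.63, 6.84 and 5.89 in Atg7KO cells and 8.56, 7.76, 7.39 and 5.80 in WT cells. All EGFP(High) arrays again lay below all EGFP(Low) arrays, with 0.47 log2 units between the gates. Group means were 4.47 ± 1.12 in Atg7KO-High and 4.56 ± 0.50 in WT-High cells (SD, n = 3 each), and 6.59 ± 0.49 in Atg7KO-Low and 7.38 ± 1.16 in WT-Low cells (SD, n = 4 each).

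EGFP(High) minus EGFP(Low) was -2.12 (SE 0.57) for Serpina1b in Atg7KO cells, a 4.35-fold lower level, and -2.82 (SE 0.57) in WT cells, a 7.05-fold lower level. The WT difference ranked 6th from the lowest among 15873 genes, and the Atg7KO difference 81st. The Atg7KO difference leaned on Atg7KO-High-356, the array with the lowest Serpina1b value and a narrow spread: it was -1.49 without this array and -1.12 once the array SD entered as covariate. The 2 genotypes overlapped in both gates. Atg7KO minus WT was -0.78 (SE 0.53) in EGFP(Low) cells and -0.09 (SE 0.61) in EGFP(High) cells. The EGFP(High) value was 0.54 without Atg7KO-High-356 and 1.13 with array SD in the model, and its sign changed in 4 of 20 alternatives.

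Serpina1e moved less but also without overlap between the gates. It read 4.18, 4.15 and 4.00 in Atg7KO-High and 3.75, 4.15 and 3.69 in WT-High cells. It read 4.71, 4.76, 6.08 and 5.96 in Atg7KO-Low and 4.76, 5.11, 5.02 and 5.73 in WT-Low cells. The highest EGFP(High) array was 0.53 log2 units below the lowest EGFP(Low) array. The difference was -1.27 (SE 0.32) in Atg7KO cells and -1.30 (SE 0.32) in WT cells. Leaving out single arrays moved it between -1.49 and -1.03 in Atg7KO and between -1.44 and -1.10 in WT cells. Serpina1e reached the 40th percentile on 3 of 3 Atg7KO-High and 1 of 3 WT-High arrays, so these differences may also be understated.

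The other copies stayed low. Serpina1c read between 2.55 and 3.63 on 12 arrays, but 4.23 in WT-Low-409 and 6.82 in WT-Low-411. WT-Low-411 thus had the highest Serpina1c value of the 14 arrays and the lowest Serpina1b value of the 8 EGFP(Low) arrays. Serpina1d lay between 1.99 and 2.88 and reached the 40th percentile on 0 of 14 arrays. The probe sequences were not used here, and Serpina1 copies are known to be close in coding sequence, so the split of signal among the Serpina1 genes is uncertain.

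Ttr was bright on every array, with no separation between gates or genotypes. It read 8.65, 8.25 and 8.73 in Atg7KO-High and 7.93, 7.85 and 8.64 in WT-High cells. It read 7.76, 8.41, 8.06 and 8.96 in Atg7KO-Low and 7.61, 8.49, 8.63 and 7.56 in WT-Low cells. EGFP(High) minus EGFP(Low) was 0.24 (SE 0.32) in Atg7KO cells and 0.06 (SE 0.32) in WT cells. Atg7KO minus WT was 0.40 (SE 0.34) in EGFP(High) and 0.22 (SE 0.30) in EGFP(Low) cells.

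Habp2 was measured at 5.03 to 6.89 over all arrays and overlapped between the gates. It read 5.03, 5.69 and 5.34 in Atg7KO-High and 5.33, 6.34 and 5.98 in WT-High cells, means of 5.35 ± 0.33 and 5.89 ± 0.52 (SD, n = 3 each). It read 5.68, 6.12, 5.66 and 5.68 in Atg7KO-Low and 6.28, 6.07, 6.89 and 5.97 in WT-Low cells, means of 5.79 ± 0.22 and 6.30 ± 0.41 (SD, n = 4 each). Atg7KO minus WT was -0.53 (SE 0.28) in EGFP(High) and -0.52 (SE 0.24) in EGFP(Low) cells, and the genotypes overlapped in both gates. Between the gates, the difference was -0.43 (SE 0.26) in Atg7KO and -0.42 (SE 0.26) in WT cells.

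In the fit over all genes, 3 of the 5 tested genes (Afp, Serpina1b and Serpina1e) were called lower in the EGFP(High) gate in both genotypes. Among all genes, 6.44% were called lower there in Atg7KO cells and 1.22% in WT cells (10.9% and 2.44% in either direction, and 4.48% and 1.22% higher). Since the genes were chosen on such values, nothing is read from that count. For Atg7KO against WT, 0 of the 5 were called in either gate, against 0.0126% of all genes in EGFP(High) and 0.0063% in EGFP(Low) cells. A difference of the genotype effect between the gates was called for 0 of the 5 and for 0.0063% of all genes. Both gate comparisons use separate arrays, but each shares its arrays with the genotype comparisons.

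The 3 genes that separated the gates did not all vary together within groups. After the group means were removed, the correlation over 14 arrays was 0.52 between Afp and Serpina1e, -0.44 between Afp and Serpina1b and -0.55 between Serpina1b and Serpina1e. Among the 8 EGFP(Low) arrays, WT-Low-341 had the lowest Afp and the highest Serpina1b value.

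Some other plasma protein genes were called between the gates in Atg7KO cells, and none in WT cells. A call in 1 genotype alone does not show a difference between the genotypes. Lists of the albumin family, plasma serpins, carriers and acute phase proteins, apolipoproteins, coagulation factors and complement held 85 further genes, of which 78 had a row and 32 passed the filter. In WT cells 0 of the 32 were called between the gates by limma, beside 2.44% of all genes. An unadjusted p under 0.05 (limma) was found for 3 of the 32 and for 2348 of all 15873 genes. The median difference in WT cells was -0.05 in the list against 0.03 over all genes tested. In Atg7KO cells 6 of the 32 were called, 4 lower and 2 higher in EGFP(High), beside 6.44% and 4.48% of all genes, with a median of 0.02 in the list and 0.02 over all genes. The lower ones were Mttp, which loads lipid onto apolipoprotein B (-1.27, SE 0.28, adjusted p = 0.0119), Rbp4, the retinol carrier that binds transthyretin (-0.83, SE 0.23, adjusted p = 0.0309), and the apolipoprotein genes Apoa1 (-1.29, SE 0.36, adjusted p = 0.0347) and Apoc3 (-1.36, SE 0.38, adjusted p = 0.0352). The higher ones were Trf, the transferrin gene (0.69, SE 0.18, adjusted p = 0.0242), and Orm1, an acute phase glycoprotein gene (0.70, SE 0.21, adjusted p = 0.0434). These calls depended on single arrays and settings: Orm1 was lost under 16 of 23 alternatives, Apoa1 under 12 of 24, Apoc3 under 7 of 24, Rbp4 under 6 of 24, Trf under 5 of 23 and Mttp under 2 of 24. Mttp was lost without Atg7KO-High-348, Trf without Atg7KO-High-356, Atg7KO-High-386, Atg7KO-Low-356 or Atg7KO-Low-386, and Apoc3 without Atg7KO-High-348, Atg7KO-High-386, Atg7KO-Low-356, Atg7KO-Low-386 or Atg7KO-Low-387. Rbp4, Apoa1 and Orm1 were lost without any 1 of the 3 Atg7KO-High arrays or without Atg7KO-Low-386 or Atg7KO-Low-387, Apoa1 and Orm1 also without Atg7KO-Low-356, and Orm1 also without any 1 WT-High array. Apoa1, Apoc3 and Mttp are also enterocyte genes, and enterocyte markers, a list that holds all 3, were called lower in EGFP(High) for 9 of 20 in Atg7KO (5 without Atg7KO-High-348) and 1 of 20 in WT cells (0 to 2 with single arrays left out); their part in the result was not tested. In WT cells Rbp4 differed by -0.88 (SE 0.23) with limma adjusted p = 0.0556, and Ambp, the alpha-1-microglobulin gene, by -1.97 (SE 0.63) with limma adjusted p = 0.129. A difference of the gate effect between the genotypes was called for 0 of the 32, beside 0.0063% of all genes. Between genotypes 0 of the 32 were called in either gate (7 at unadjusted p under 0.05 in EGFP(High) and 0 in EGFP(Low), limma). Of all 15873 genes, 2519 had an unadjusted p under 0.05 in EGFP(High) and 1152 in EGFP(Low) (limma).

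**Figure D2:**
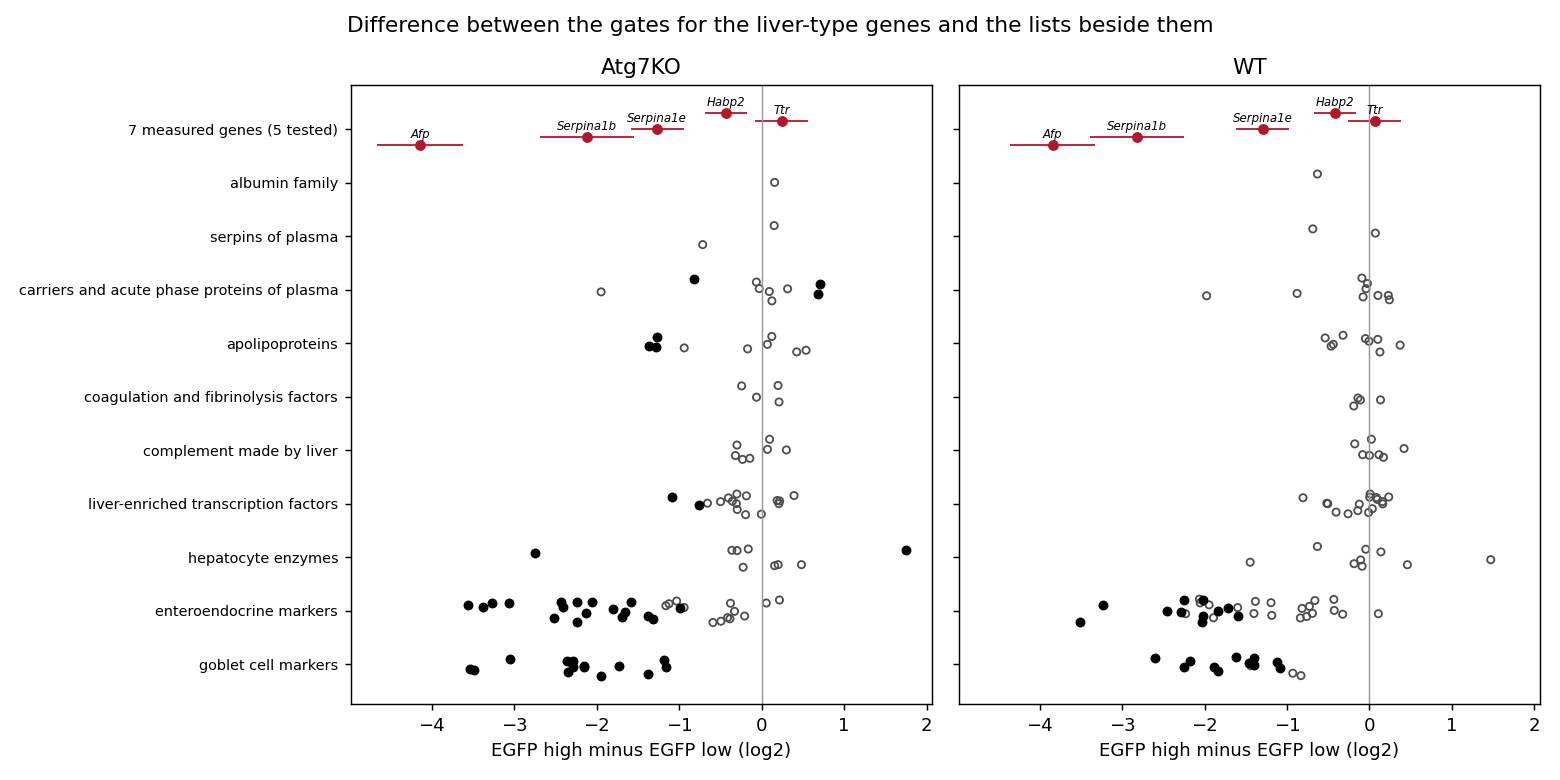
Difference EGFP(High) minus EGFP(Low) in log2 units for the tested liver-type genes (red, bars are SE) and for the genes of 10 lists, in Atg7KO (left) and WT cells (right). Filled black points were called by limma and open points were not; Afp lies at -4.14 in Atg7KO and -3.84 in WT cells, left of all points of the plasma protein lists.

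Of the 5 protein-coding genes on each side of Afp, Npffr2, Adamts3, Afm, Albfm1, Cxcl5 and Ppbp did not pass the filter. They had little signal in which a difference between the gates could show. Of those that passed, Cox18 differed by -0.48 in Atg7KO and -0.27 in WT cells, and Ankrd17 by 0.07 and 0.12. Alb, the albumin gene, lies next to Afp on chromosome 5 and averaged 3.98 in Atg7KO-High, 3.51 in WT-High, 3.82 in Atg7KO-Low and 4.14 in WT-Low cells, around the 40th percentile. Its gate difference was 0.16 (SE 0.25, limma adjusted p = 0.738) in Atg7KO and -0.63 (SE 0.25, limma adjusted p = 0.231) in WT cells. Afm, the afamin gene on the other side, did not pass the filter and averaged between 2.66 and 2.79. Among the 5 protein-coding genes on each side, Rassf6 was the other one that was lower in the stem cell gate by over 1 log2 unit, at -1.40 in Atg7KO and -1.32 in WT cells, and it was picked out after its values were seen. Around the Serpina1 genes on chromosome 12, Serpina1f, Serpina6, Serpina10, Serpina11 and Serpina16 did not pass the filter, with group means of at most 3.88. Serpina9, near Serpina1e, did pass it, with means of 3.51 in Atg7KO-High, 3.61 in WT-High, 3.63 in Atg7KO-Low and 4.11 in WT-Low cells, and was not called between the gates (-0.12, SE 0.23, limma adjusted p = 0.796 in Atg7KO; -0.49, SE 0.23, limma adjusted p = 0.345 in WT cells).

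**Figure D3:**
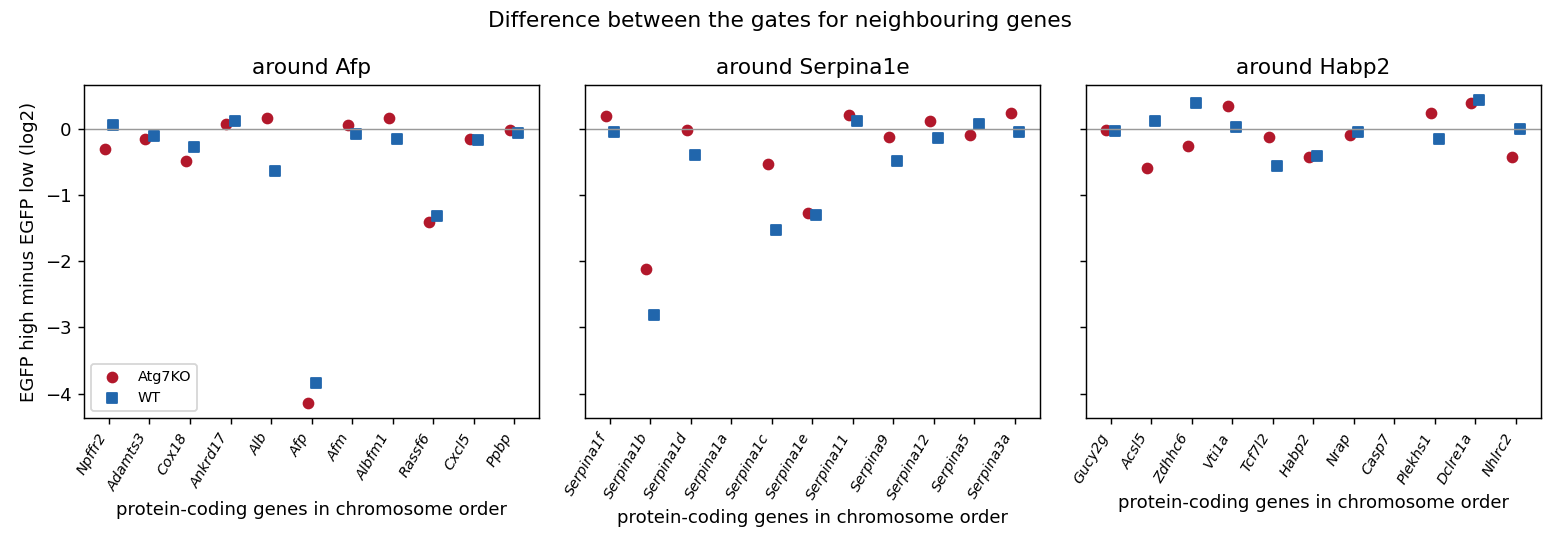
Difference EGFP(High) minus EGFP(Low) in log2 units for 5 protein-coding genes on each side of Afp, Serpina1e and Habp2, in the order of the RefSeq annotation; red circles are Atg7KO and blue squares WT cells, genes under the filter included. Afp stands at -4.14 and -3.84 while Alb and Afm lie between -0.63 and 0.16; genes without a point have no named row.

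Known regulators of these genes were set beside them. Of the repressors of Afp known from mouse liver and cell lines, Zfhx3 was higher in EGFP(High) by 0.94 (SE 0.16, limma adjusted p = 0.00236) in Atg7KO and 0.89 (SE 0.16, limma adjusted p = 0.00901) in WT cells. It read 6.94 to 7.25 in Atg7KO-High and 6.94 to 7.39 in WT-High cells, against 6.08 to 6.32 in Atg7KO-Low and 6.15 to 6.56 in WT-Low cells. The WT call was lost without WT-High-412. Zbtb20, which silences Afp in mouse liver after birth, was higher in EGFP(High) by 1.12 (SE 0.23, limma adjusted p = 0.00811) in Atg7KO cells, a call lost with the array SD as a covariate although the difference lay between 0.93 and 1.26 under all 24 alternatives, and differed by 0.18 (SE 0.23, limma adjusted p = 0.784) in WT cells. Zhx2, the third, differed by 0.02 (SE 0.35) in Atg7KO and 0.30 (SE 0.35) in WT cells and was not called. The list of 4 repressors also held Trp53, which had no named row. Of the 3 measured, 2 were called higher in EGFP(High) in Atg7KO and 1 in WT cells. Among all genes, 4.48% were called higher in Atg7KO and 1.22% in WT cells. The part of these repressors in the level of Afp was not tested.

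Liver-enriched transcription factors had signal in both gates as a set, with a mean over 16 genes of 6.31 to 6.82 per array. All 16 with a row passed the filter, which does not by itself place each gene in both gates. In EGFP(High), 2 were called lower in Atg7KO cells and 0 in WT cells (2 at unadjusted p under 0.05, limma). Beside these counts, 6.44% of all genes were called lower in Atg7KO and 1.22% in WT cells. In WT cells 2348 of the 15873 genes had an unadjusted p under 0.05 in either direction (limma). The called ones were Hnf4g (-1.08, SE 0.27, limma adjusted p = 0.0209) and Cebpb (-0.76, SE 0.21, limma adjusted p = 0.0311), both in Atg7KO cells. Hnf4g differed in WT cells by -0.81 (SE 0.27, limma adjusted p = 0.153). Hnf4g lost its call without Atg7KO-High-348 or Atg7KO-High-386, with repeated quantile normalization or with the array SD as a covariate. Cebpb lost its call without any 1 Atg7KO-High array, Atg7KO-Low-386 or Atg7KO-Low-387. The Cebpb call was also lost with the array SD as a covariate, in a fit of the 2 groups alone and without both narrowest arrays. Hnf4a, which drives many hepatocyte and enterocyte genes, averaged 9.79 in Atg7KO-High, 9.91 in WT-High, 9.57 in Atg7KO-Low and 9.68 in WT-Low cells and was not called.

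Markers of hepatocytes went both ways. Their mean over 16 measured genes, 9 of which passed the filter, lay between 4.71 and 4.90 on every array, and Cyp7a1, Tdo2, Tat, Uox, Hao1 and Hal were under the filter. In Atg7KO cells 2 of the 9 were called, beside 6.44% of all genes called lower and 4.48% higher in EGFP(High). Hpd, a tyrosine breakdown enzyme, was lower (-2.75, SE 0.46, limma adjusted p = 0.0024) and Cyp2e1 was higher (1.74, SE 0.45, limma adjusted p = 0.0234). Cyp2e1 lost its call without Atg7KO-High-348, Atg7KO-High-356 or Atg7KO-Low-386. Its call was also lost with the array SD as a covariate, in a fit of the 2 groups alone and without both narrowest arrays. In WT cells 0 of the 9 were called (4 at unadjusted p under 0.05, limma). Over all 15873 genes 2.44% were called there, and 2348 had an unadjusted p under 0.05 (limma). Cyp2e1 differed in WT cells by 1.47 (SE 0.45, limma adjusted p = 0.110) and Hpd by -1.45 (SE 0.46, limma adjusted p = 0.125). Like Afp, Hpd was lower on all 6 EGFP(High) arrays than on all 8 EGFP(Low) arrays, and it was the 1 tested hepatocyte marker of 9 to be so.

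Enteroendocrine markers did move with the gates. Of 31 measured, 18 were called lower in EGFP(High) in Atg7KO cells and 11 in WT cells, with 0 higher in either and median differences of -1.38 and -1.60. Among them were Cck (-2.06, SE 0.40, adjusted p = 0.00537 in Atg7KO; -2.28, SE 0.40, adjusted p = 0.00901 in WT cells, limma) and Reg4 (-3.38, SE 0.44, adjusted p = 0.000626 in Atg7KO; -2.24, SE 0.44, adjusted p = 0.0176 in WT cells, limma). Reg4 lost its WT call without WT-Low-409, WT-High-388 or WT-High-412. Their mean level per array was 5.09 to 6.51 in Atg7KO-High and 5.61 to 6.00 in WT-High cells, against 6.74 to 7.80 in Atg7KO-Low and 6.72 to 7.64 in WT-Low cells, and none of the 31 was under the filter. The WT count fell to 1 without WT-Low-409 or WT-High-412, 2 without WT-High-388, 3 without WT-High-411, 5 without WT-Low-407 and 6 without WT-Low-411. The Atg7KO count was 7 without Atg7KO-High-356, 9 without Atg7KO-High-348 and 10 without Atg7KO-Low-386, and 3 with the array SD as a covariate, where Cck was not called. Beside these counts, 6.44% of all genes were called lower in Atg7KO and 1.22% in WT cells. Goblet cell markers moved the same way, with 14 of 14 called lower in EGFP(High) in Atg7KO and 11 of 14 in WT cells, a WT count that was 1 without WT-High-411 or WT-High-412, 3 without WT-Low-409, 5 without WT-High-388 and 7 without WT-Low-341 or WT-Low-407. Goblet means per array were 7.49 to 9.17 in Atg7KO-High and 8.87 to 9.42 in WT-High cells, against 10.2 to 10.7 in Atg7KO-Low and 10.5 to 11.0 in WT-Low cells. Of 13 Paneth cell markers, 7 were called lower in EGFP(High) in Atg7KO and 1 in WT cells, with medians of -1.22 and -0.62. The Paneth count in Atg7KO cells was 2 without Atg7KO-High-356 and 4 without Atg7KO-High-348, Atg7KO-Low-353 or Atg7KO-Low-387, and the WT count was 0 without WT-Low-409 or any 1 WT-High array. All 6 EGFP(High) arrays lay below all 8 EGFP(Low) arrays for 7 of 31 enteroendocrine, 14 of 14 goblet and 1 of 13 Paneth markers. Of all 15873 genes, 1.79% showed this separation. The part of these cell types in the level of Afp, Serpina1b and Serpina1e was not tested.

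Within the 8 EGFP(Low) arrays, the correlation of Afp with the mean enteroendocrine level was Pearson's r = 0.90 (exact permutation p = 0.00704) and Spearman's rho = 0.74 (exact permutation p = 0.0458). This was 1 of 40 relations computed and did not pass the adjustment, with an adjusted p of 0.282 for r and 0.583 for rho. It rested on Atg7KO-Low-356 and WT-Low-341, the arrays lowest in both measures, since r was 0.40 without them. Over the same arrays r was 0.63 for Serpina1e (exact permutation p = 0.104, adjusted 0.399), 0.64 for Ttr (exact permutation p = 0.0977, adjusted 0.399), 0.09 for Habp2 (exact permutation p = 0.827, adjusted 0.893) and -0.66 for Serpina1b (exact permutation p = 0.0722, adjusted 0.399). The other relations with an exact permutation p under 0.05 for r also failed the adjustment. For Habp2 and the goblet mean in EGFP(Low) cells, r was 0.79 (exact permutation p = 0.0294, adjusted 0.393) and rho 0.64 (exact permutation p = 0.0962), with r = 0.43 without Atg7KO-Low-356 and WT-Low-409. For Habp2 and the Paneth mean in EGFP(High) cells, r was 0.90 (exact permutation p = 0.0167, adjusted 0.333) and rho 0.83 (exact permutation p = 0.0583), with r = 0.58 without Atg7KO-High-356 and WT-High-411. For Serpina1e and the enterocyte mean in EGFP(High) cells, r was -0.82 (exact permutation p = 0.0403, adjusted 0.399) and rho -0.89 (exact permutation p = 0.0333), with r = -0.53 without WT-High-388 and WT-High-412. That enterocyte mean was 7.10 to 7.17 in Atg7KO-High and 7.18 to 8.25 in WT-High cells. All correlations within a gate pool both genotypes with their means left in, so a genotype difference can enter them.

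**Figure D4:**
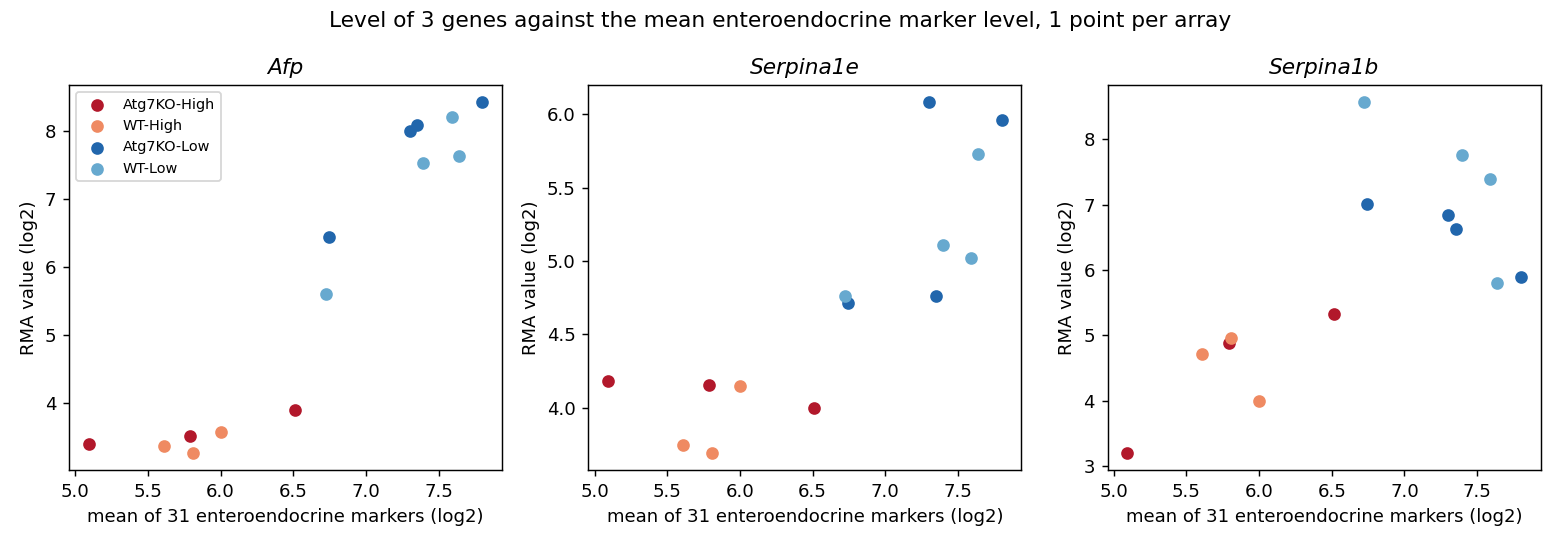
Log2 value of Afp, Serpina1e and Serpina1b (vertical) against the mean log2 value of 31 enteroendocrine markers (horizontal), 1 point per array, coloured by group. Among EGFP(Low) arrays Afp is lowest on the 2 arrays with the lowest marker mean (5.60 and 6.44), while Serpina1b is highest, at 8.56, on 1 of them.

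The genes with the most similar profile over the 14 arrays differed from gene to gene. For Afp they were Myl7, Peg3os, Pla2g10, Ghrl and Fxyd3, all with Pearson's r = 0.95. Ghrl encodes the enteroendocrine hormone ghrelin and had r = 0.81 once group means were removed, beside 0.76 for Peg3os, 0.69 for Pla2g10, 0.65 for Fxyd3 and 0.47 for Myl7. For Serpina1b they were Elovl7 (0.94, and 0.91 within groups), Pof1b, Pld1, Dop1b and Cyp4f40. For Serpina1e they were Wdr44 (0.95), Syt13, Rbp4 (0.92), Ckap4 and Resp18, the last an enteroendocrine marker on the list. Ttr was most like Inka1 (0.83), Dazap1, Slc5a2, Mau2 and Agpat1, and Habp2 most like Papss1 (0.91), Hyou1, Rab15, Itln1 and Triqk. All points share the 14 arrays and their gate, so these values describe likeness over these samples.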

How the data were processed

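RNA of 14 sorted samples was measured on 1 array each. The authors made the deposited log2 values with Affymetrix Expression Console and RMA (background correction, quantile normalization and summary per probe set), per the submitters' processing notes; the sources used here give no versions or probe set definitions. RMA can narrow large differences near background. Arrays have no read depth, so the number of arrays limits precision. The table holds 25429 probe sets, 24675 with 1 gene symbol, 0 with several and 754 with none, which were left out.

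The filter kept 15873 genes whose value reached the array's 40th percentile on 3 or more arrays. The 4 group means entered 1 model of all arrays in limma 3.58.1 and R 4.3.3 (lmFit, eBayes), with two-sided p-values adjusted by Benjamini-Hochberg over all tested genes and calls at adjusted p under 0.05. Samples came from individual mice, per the labels, which do not tie title numbers to mice, so the numbers were no block. Correlations within a gate used exact two-sided permutation tests over the arrays of both genotypes, with genotype means left in. The steps were tested on simulated data. Alternatives were the filter, the samples fitted, array weights, renormalization, array SD as a covariate, a replicate block and leaving out arrays.

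The genes and all lists were chosen with earlier results of these data known. Named genes were the 8, fixed regulators, up to 4 called genes per list and contrast by smallest p (or the 2 with the smallest p), and the 5 with the highest correlation; not all of them are printed. Marker counts and named genes under the alternatives were added after seeing the data. Promoter windows are from RefSeq (GRCm38.p6), with 1 window for 7 of the 8 genes. Gene order came from a RefSeq table of the same build.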

Additional observations from a re-analysis of the deposited data

Results flagged for a closer look

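Among 40 values checked in the groups of 4 arrays, 2 had 1 array far from the other 3, and chance alone flags about 1 in 20. Habp2 read 6.12 in Atg7KO-Low-353, while the other Atg7KO-Low arrays read 5.66 to 5.68. Without this array, Habp2 in EGFP(Low) cells differed between Atg7KO and WT by -0.63 in place of -0.52. Hnf4a read 9.36 in WT-Low-411, while the other WT-Low arrays read 9.77 to 9.81. WT-Low-411 is also the array with the highest Serpina1c value (6.82) and, with Atg7KO-High-356, the narrowest spread of all values.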

How the results depend on the processing

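The gate differences of Afp, Serpina1b and Serpina1e kept their direction under every alternative run. The genes called for Atg7KO against WT in EGFP(High) cells (2) became 5 with the 2 groups alone, 1 without the filter or with a stricter one, 703 with array weights, and 1 to 43 with single arrays left out (43 without Atg7KO-High-386). In EGFP(Low) cells (1) they were 0 with the 2 groups alone or without the narrowest arrays, and 0 to 2 with arrays left out. Between the gates in WT cells (2.44% of genes) they were 1201 with array weights and 103 (without WT-High-412) to 442 with arrays left out. In Atg7KO cells (1734) they were 1027 with the 2 groups alone, 495 with array SD as a term, 1110 without the narrowest arrays, and 781 (without Atg7KO-High-356) to 2122 (without WT-Low-411). The difference of the genotype effect between gates (1) gave 2 with the stricter filter, array weights or the replicate block, and 1 to 4 with arrays left out. Of the 32 other plasma protein genes, calls for Atg7KO against WT in EGFP(High) (0) became 1 with array weights. Those between the gates in WT cells (0) became 1 with the stricter filter, 2 with array weights, 1 with the replicate block, and 0 to 1 with arrays left out. Those in Atg7KO cells (6) became 3 without the filter, with repeated quantile normalization or without the narrowest arrays, 2 with the array SD as a covariate, and 1 to 7 with arrays left out. Leaving arrays out gave 0 to 0 for both genotype comparisons and the gate dependence of these genes. The cause was not tested. Samples with a shared title number had residual correlations of 0.11 (Atg7KO-High-356 and Atg7KO-Low-356), 0.18 (Atg7KO-High-386 and Atg7KO-Low-386) and -0.04 (WT-High-411 and WT-Low-411), so not every pair was over 0.1, and the labels name no shared source. Atg7KO-High-386 and Atg7KO-Low-386 were each other's best match, a hint from the data alone. The replicate block had a within-number correlation of 0.07.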
